A study of Rattus norvegicus with 4 samples.

Results

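The genes described here act in the oxidation of fatty acids and in the turnover of ketone bodies. They were chosen as 52 gene symbols, and each was followed through the single row of the deposited table whose RefSeq accession carries that symbol. Of the 52 genes, 49 had a value on all 4 arrays, and they stand among 18350 measured rows, of which 7062 could be named, for 6963 genes. Acsl6 and Ucp3 have a row without a value, and no row was matched to Oxct1, so these 3 genes were not analysed here. Each of the 49 genes had 1 measured row.

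Colon tissue came from male Sprague Dawley rats, 2 of them controls and 2 given a mesenchymal stem cell transplantation (MSCT group), and each rat was measured on 1 one-color NimbleGen array. MSCT rats received TNBS (2,4,6-trinitrobenzene sulfonic acid) in the colon, a hapten that causes colitis, and then mesenchymal stem cells carrying virally delivered green fluorescent protein through the tail vein. The control rats had no transplantation. Their sample descriptions call them normal, whereas the paper's Results and Methods set the chips against rats with TNBS colitis, so whether the control rats also received TNBS is not settled by the labels. No age is given, and the day of sampling differs between the Methods and the Results of the paper. The tissue was a piece of bowel wall, so a change in RNA per cell and a change in the number of cells of a type cannot be told apart. Over all rows the arrays correlated at 0.953 between the control and 0.964 between the MSCT replicates, and at 0.934 to 0.959 across the groups. Values are log2 intensities, in which a difference of 1 is 2-fold, and "difference" means MSCT minus control.

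Fatty acids are first joined to coenzyme A, carried into mitochondria as carnitine esters, and shortened step by step by a dehydrogenase, a hydratase, a second dehydrogenase and a thiolase. Very long and branched chains are shortened in peroxisomes, and double bonds need extra isomerases and a reductase. Colonocytes are known for using butyrate made by gut bacteria as their main fuel, and the colon epithelium can form ketone bodies from it. Many genes of this pathway are known targets of the peroxisome proliferator-activated receptors (PPARs), nuclear receptors that respond to fatty acids.

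In the MSCT group 5 of the 49 genes were higher by more than 2-fold with an unadjusted p under 0.05 by limma, the screen applied here: Acot1, Decr1, Angptl4, Pdk4 and Cpt2. None was lower by that screen. Over all measured rows the screen was passed by 2.12% in the higher and 2.51% in the lower direction, and over the named genes by 3.13% in the higher direction, against 10.2% of the 49 genes. A further pair, Eci1 and Acat1, was higher at an unadjusted p under 0.05 without reaching 2-fold, and Ppargc1a and Acsl4 were lower. The call of Acsl4 was lost under 5 of 7 other settings and with any 1 array left out, that of Acat1 with any 1 array left out, and those of Eci1 and Ppargc1a by a plain equal-variance test and with 3 of the 4 arrays left out in turn. These 9 genes make 7 of 49 higher (14.3%) and 2 of 49 lower (4.08%), where 4.8% and 7.17% of all rows had such a p. No gene of the 49, and no row of the table, passed an adjusted p of 0.05 (Benjamini-Hochberg over all rows) in this limma fit, and the smallest adjusted p among the 49 genes was 0.26. With a variance that follows intensity Cpt2 and Decr1 passed it, as did 2.11% of all rows, and with the dimmest 50% of rows left out the same genes passed, as did 2.69% of the remaining rows. The study's general statistics rest on one-way analysis of variance, which for 2 groups is an equal-variance test, called here the methods' t-test. The Methods do not name a test for the chips. With the methods' t-test 388 rows passed the screen, 191 higher and 197 lower. The paper prints the same total and the same split for its chips, so its counts were matched by this test and not by limma. Whether the same rows passed was not checked. The limma screen passed 850 rows, 389 higher and 461 lower. The methods' t-test put 3 of the 5 genes past the screen, Acot1, Pdk4 and Cpt2, but not Decr1 and Angptl4. It put 9 of the 49 at an unadjusted p under 0.05 (8 higher, 1 lower), 0 of them after adjustment. The share of all rows with such a p by this test was not counted.

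Most other differences were small. In total 34 of the 49 genes were higher and 15 lower, with a median difference of 0.21, where 48.0% of all rows were higher with a median of -0.02. Among named genes 55.8% were higher, with a median of 0.05. Both MSCT arrays lay above both control arrays in 24 of the 49 genes and below them in 7. Over all rows this was so in 21.3% and 24.5%, and over named genes in 27.6% and 20.2%. The 49 genes were chosen with earlier results of these arrays known, and no test was made over the list. Replicates of these genes had a median SD of 0.18 among control and 0.10 among MSCT arrays, against 0.22 and 0.17 over all rows. Only Acox2, Lipe and Lpl differed by more than 2-fold between the control arrays, and none did between the MSCT arrays. Of all 18350 rows, 1602 did so between the control and 1375 between the MSCT arrays.

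**Figure D1:**
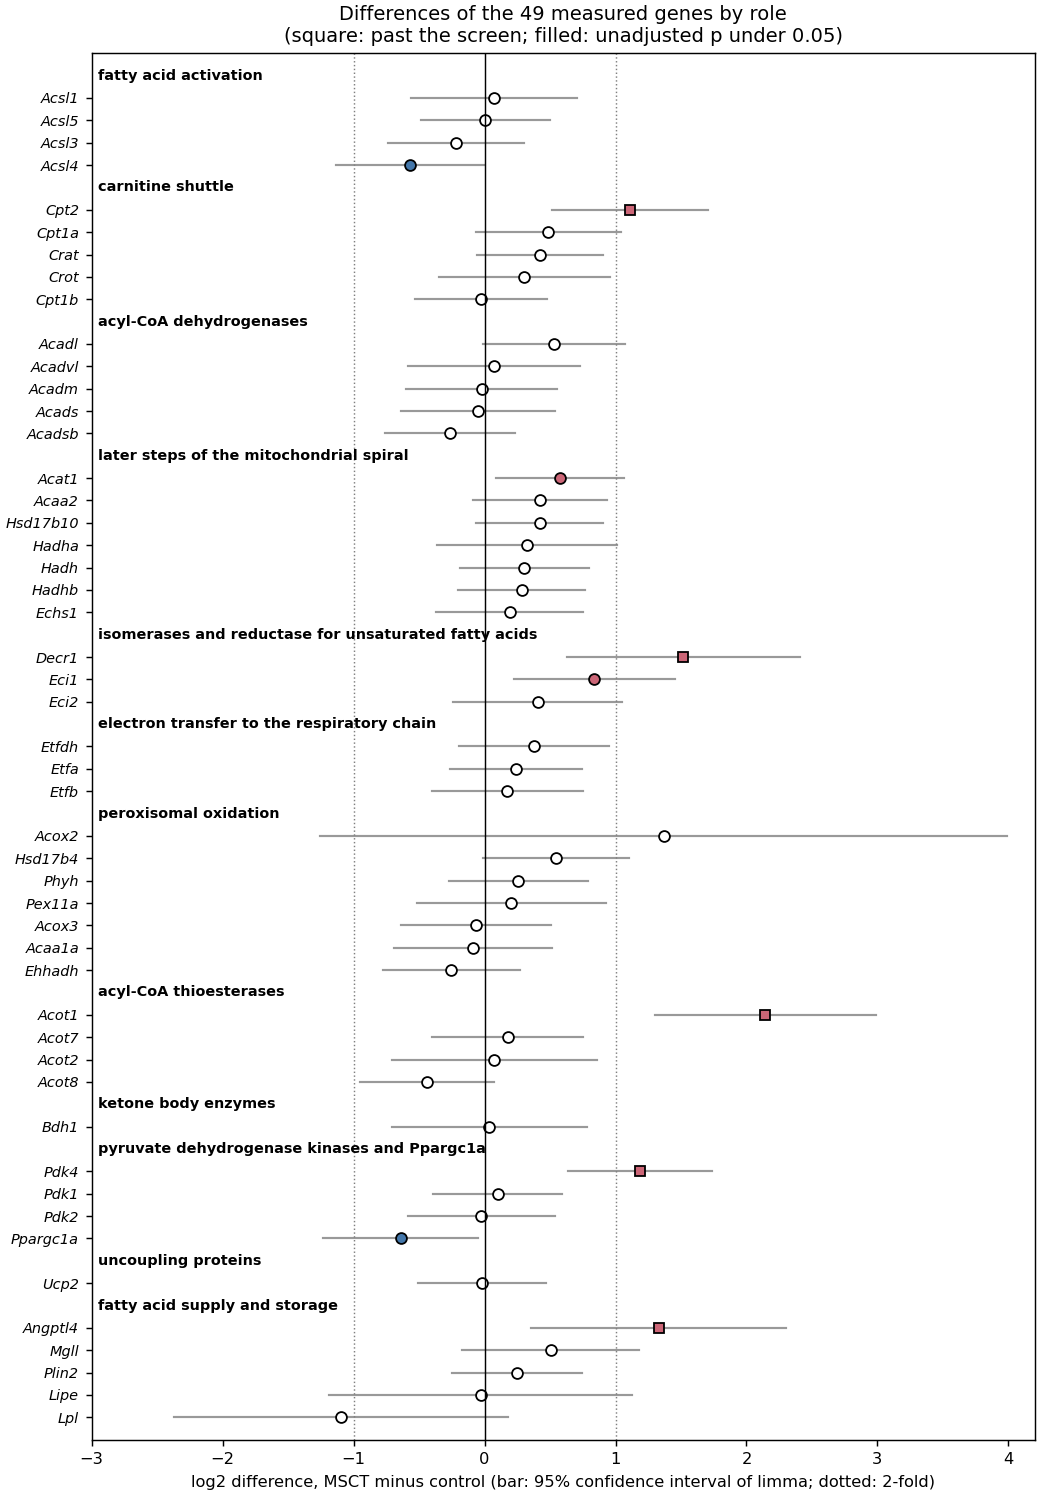
Log2 difference, MSCT minus control, of the 49 measured genes (x axis), grouped by role and ordered by size within a role (y axis), with 95% confidence intervals of limma from 2 arrays per group. Squares mark the 5 genes past the screen and filled points the 9 genes with an unadjusted p under 0.05, red for higher and blue for lower. All 7 genes of the later steps of the mitochondrial spiral lie to the right of 0.

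The stretches before the start of 4 of the 5 genes past the screen are shown because these genes were higher together on both MSCT arrays. They are the 250 bases upstream of the annotated start in the rat assembly GRCr8, from RefSeq, written in the direction of the gene. They lie at chr6:109367024-109367273 (plus strand) for Acot1, chr7:15258682-15258931 (minus strand) for Angptl4, chr5:127910819-127911068 (minus strand) for Cpt2 and chr4:34568330-34568579 (minus strand) for Pdk4. Capitals mark matches on either strand to 4 motifs. The half-site of PPARs and related nuclear receptors was searched as AGGTCA. The letters TATAAA stood for the TATA box. For the GC box the search used GGGCGG, and the CCAAT box was searched by the letters of its name.
Acot1: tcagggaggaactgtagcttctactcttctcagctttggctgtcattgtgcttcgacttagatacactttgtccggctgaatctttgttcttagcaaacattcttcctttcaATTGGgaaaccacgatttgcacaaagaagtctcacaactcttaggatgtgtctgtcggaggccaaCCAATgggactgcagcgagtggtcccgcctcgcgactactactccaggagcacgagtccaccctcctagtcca
Angptl4: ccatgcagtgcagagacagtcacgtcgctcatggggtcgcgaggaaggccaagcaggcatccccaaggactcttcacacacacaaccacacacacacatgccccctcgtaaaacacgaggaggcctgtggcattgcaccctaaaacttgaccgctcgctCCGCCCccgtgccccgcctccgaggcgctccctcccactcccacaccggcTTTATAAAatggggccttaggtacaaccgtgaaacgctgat
Cpt2: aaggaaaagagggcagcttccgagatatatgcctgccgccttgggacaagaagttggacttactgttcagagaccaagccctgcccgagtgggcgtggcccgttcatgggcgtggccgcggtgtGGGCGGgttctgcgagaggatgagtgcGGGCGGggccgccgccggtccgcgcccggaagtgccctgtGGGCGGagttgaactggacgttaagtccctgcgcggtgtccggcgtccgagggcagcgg
Pdk4: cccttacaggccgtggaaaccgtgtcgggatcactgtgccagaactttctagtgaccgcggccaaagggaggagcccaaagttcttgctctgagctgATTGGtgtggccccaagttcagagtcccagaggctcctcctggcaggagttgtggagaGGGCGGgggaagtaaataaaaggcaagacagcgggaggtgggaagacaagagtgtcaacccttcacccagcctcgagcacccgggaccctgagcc
The Acot1 stretch holds 2 CCAAT boxes and 49.6% G and C. That of Angptl4 holds a GC box and a TATA box, matched on both strands in 2 overlapping places, and 60.0% G and C. Cpt2 has 3 GC boxes and 66.8% G and C, and Pdk4 1 GC box and 1 CCAAT box with 59.2% G and C. None of the 4 stretches holds AGGTCA, which says only that these letters are not in this window. RefSeq windows were found for 43 of the 49 genes. AGGTCA occurred in 5 of them (Acadvl, Acot8, Echs1, Eci1 and Hsd17b4), TATAAA in 3, GGGCGG in 28 and CCAAT in 16. Of 33469 windows of the same length in the whole table, 14.1% held AGGTCA, 12.9% TATAAA, 30.5% GGGCGG and 34.0% CCAAT. A gene was counted if any of its windows held the motif, whereas these shares count single windows, so the units differ.

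The long-chain acyl-CoA synthetases join fatty acids to coenzyme A, and of the 4 measured among the 49 genes, 2 were lower on both MSCT arrays and 2 overlapped. Over all rows 24.5% were lower without overlap. Acsl4, which prefers arachidonic acid, was at 8.50 and 8.75 in the control rats against 8.16 and 7.95 in the MSCT rats. The groups did not overlap, and the difference was -0.57 (standard error 0.21, adjusted p = 0.415 by limma). Acsl3 differed by -0.22, while Acsl1 (0.07) and Acsl5 (0.01), a form abundant in intestine, had differences below their standard errors.

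The carnitine shuttle brings long-chain fatty acids into mitochondria, and its inner-membrane enzyme was higher in the MSCT group. Cpt2, which turns acylcarnitine back into acyl-CoA, was at 10.49 and 10.88 in the control rats against 11.75 and 11.84 in the MSCT rats. Each MSCT array lay above both control arrays. Cpt2 was 2.16-fold higher, a difference of 1.11 (standard error 0.22, 95% confidence interval 0.52 to 1.71, adjusted p = 0.289 by limma). The difference was 0.92 without control replicate 1, below the 2-fold limit. Cpt1a, the outer-membrane step that malonyl-CoA inhibits, was at 11.66 and 11.81 against 12.35 and 12.09, a difference of 0.49 (adjusted p = 0.461 by limma). Crat, the acetyltransferase of the shuttle, had tight replicates on both sides (12.83 and 12.80, 13.22 and 13.26) and differed by 0.42 (adjusted p = 0.461 by limma). Crot, its peroxisomal relative, differed by 0.30 with overlapping arrays. Cpt1b, the muscle form, differed by -0.03.

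The first step of the mitochondrial spiral showed no common direction, with 2 genes higher and 3 lower and none at an unadjusted p under 0.05. Acadl, the long-chain acyl-CoA dehydrogenase, had the largest difference of the 5 dehydrogenases, with 12.68 and 12.59 in the control rats against 13.30 and 13.04 in the MSCT rats. Its difference was 0.53 (standard error 0.20, adjusted p = 0.422 by limma). Acadvl, for very long chains, differed by 0.07, Acadm, for medium chains, by -0.02 and Acads, for short chains such as butyrate, by -0.05, each with overlapping arrays. Acadm and Acads had 95% confidence intervals of -0.60 to 0.56 and -0.64 to 0.54. Acadsb, for short branched chains, was lower on both MSCT arrays by 0.27 (difference -0.27).

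The later steps of the spiral were all higher on both MSCT arrays than on both control arrays, in 7 of 7 genes, by small amounts, where 21.3% of all rows and 27.6% of named genes were higher without overlap. The differences ran from 0.19 to 0.57 with a median of 0.32. Acat1, the mitochondrial acetoacetyl-CoA thiolase of ketone body and isoleucine metabolism, was at 11.59 and 11.64 against 12.24 and 12.14. Its replicates lay within 0.10 of each other in each group, and the difference was 0.57 (standard error 0.18, adjusted p = 0.368 by limma). Acaa2, the thiolase of medium and long chains, and Hsd17b10, a dehydrogenase of short and branched chains, each differed by 0.42. Hadha and Hadhb, the subunits of the trifunctional protein for long chains, differed by 0.32 and 0.28. Hadh, for medium and short chains, differed by 0.30, and Echs1, the short-chain hydratase, by 0.19. Of the 7 genes only Acat1 had a p under 0.05, and the adjusted p-values of the other 6 ran from 0.466 to 0.736.

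The enzymes for unsaturated fatty acids had the largest median difference of the roles with 3 or more genes (0.84), and all 3 genes lay higher on both MSCT arrays. Over all rows 21.3% were higher without overlap, and over named genes 27.6%. Decr1, the mitochondrial dienoyl-CoA reductase, was at 9.42 and 10.24 in the control rats against 11.27 and 11.42 in the MSCT rats. The control arrays were 0.82 apart, yet both lay below the MSCT arrays by more than that. Decr1 was 2.86-fold higher, a difference of 1.52 (standard error 0.33, 95% confidence interval 0.63 to 2.41, adjusted p = 0.298 by limma). Without control replicate 1 the difference was 1.11, and without control replicate 2 it was 1.93, and both passed the screen. By the methods' t-test Decr1 did not reach an unadjusted p under 0.05. Eci1, the mitochondrial enoyl-CoA isomerase, was at 10.69 and 10.27 against 11.32 on both MSCT arrays. The difference was 0.84 (standard error 0.23, adjusted p = 0.338 by limma), and without control replicate 1 it was 1.05, past the screen. Eci2, found in mitochondria and peroxisomes, differed by 0.41.

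Electrons from the dehydrogenases pass to the respiratory chain through the electron transfer flavoprotein, built from Etfa and Etfb, and its oxidoreductase Etfdh. Etfdh was at 11.47 and 11.80 in the control rats against 11.95 and 12.07 in the MSCT rats, a difference of 0.38 (standard error 0.21, adjusted p = 0.542 by limma). Etfa differed by 0.24 without overlap, and Etfb by 0.17 with overlap.

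In peroxisomes no gene passed the screen or had a p under 0.05. Acox2, the oxidase of branched chains and bile acid precursors, had the largest mean difference (1.37), but it rested on 1 array. Its values were 6.74 and 9.61 in the control rats against 9.69 and 9.39 in the MSCT rats. Control replicate 1 was the single low value, and without it the difference was -0.07, while without control replicate 2 it was 2.80 and past the screen. Hsd17b4, the bifunctional enzyme of branched chains, was higher on both MSCT arrays by 0.54 (adjusted p = 0.424 by limma). Phyh, which starts the breakdown of phytanic acid, differed by 0.26 and Pex11a, a factor of peroxisome division, by 0.21. Acox3 (-0.06), the thiolase Acaa1a (-0.09) and Ehhadh (-0.25), the bifunctional enzyme of straight chains, were lower, and of these only Ehhadh did not overlap.

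Acyl-CoA thioesterases split acyl-CoA into free fatty acid and coenzyme A, and their genes differed widely. Acot1, the cytosolic form, was at 6.46 and 7.21 in the control rats against 9.06 and 8.90 in the MSCT rats, with linear intensities of 87.8 and 148 against 532 and 478. Both MSCT arrays lay far above both control arrays. This was the largest difference of the 49 genes, 2.14 or 4.42-fold (standard error 0.32, 95% confidence interval 1.30 to 2.99, adjusted p = 0.26 by limma). Leaving out any 1 array gave between 1.77 and 2.52, past the screen each time. Acot1 is in the dimmest 25% of rows, where a small change in background weighs more. Acot2, its mitochondrial and closely related neighbor in the gene family, was at 9.39 and 8.89 against 9.46 and 8.97, a difference of 0.08. The table gives no probe sequences, so how far the rows of Acot1 and Acot2 share signal is not known. Acot7 differed by 0.18, and Acot8, a peroxisomal form, was lower on both MSCT arrays by 0.44 (difference -0.44, adjusted p = 0.466 by limma).

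Ketone body enzymes are represented among the 49 genes by Bdh1, which interconverts acetoacetate and 3-hydroxybutyrate. It was at 11.92 and 12.54 in the control rats against 12.19 and 12.34 in the MSCT rats. The MSCT arrays lay between the control arrays, with a difference of 0.04 (95% confidence interval -0.71 to 0.78).

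Among regulators, the fuel switch gene Pdk4 was higher and the coactivator gene Ppargc1a lower. Pdk4, a kinase that turns off pyruvate dehydrogenase and so spares glucose when fat is burned, was at 8.40 and 8.58 in the control rats against 9.56 and 9.79 in the MSCT rats. Its replicates were the closest of the 5 genes past the screen relative to the difference, which was 1.19 or 2.28-fold (standard error 0.21, 95% confidence interval 0.64 to 1.74, adjusted p = 0.26 by limma). It passed the screen with any 1 array left out, at 1.08 to 1.30. Its relatives Pdk1 (0.10) and Pdk2 (-0.03) had differences below their standard errors, although the arrays of Pdk1 did not overlap. Ppargc1a, a coactivator of mitochondrial genes, was at 11.59 and 11.94 against 11.05 and 11.20. The MSCT arrays were both lower, with a difference of -0.64 (standard error 0.22, adjusted p = 0.396 by limma). Ucp2, an inner-membrane carrier, was at 14.67 and 14.76 against 14.66 and 14.73, a difference of -0.02 (95% confidence interval -0.51 to 0.47).

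**Figure D2:**
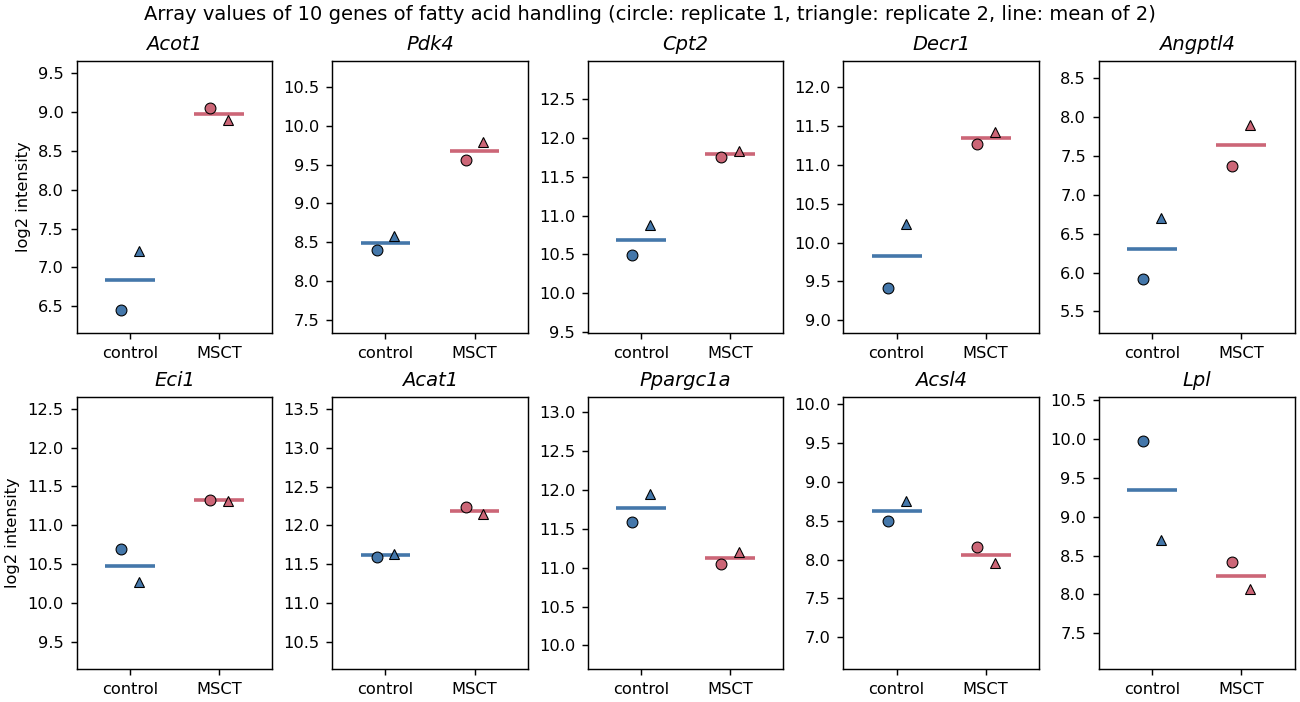
Log2 intensity (y axis) on each array for 10 genes, with control in blue, MSCT in red, replicate 1 as a circle, replicate 2 as a triangle and the mean of 2 arrays as a line. All panels span the same range of log2 units. The arrays of the groups do not overlap in any of the 10, and the control arrays of Lpl are 1.28 apart.

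Genes of fatty acid supply went both ways. Angptl4, a secreted inhibitor of lipoprotein lipase, was at 5.91 and 6.70 in the control rats against 7.38 and 7.90 in the MSCT rats. It was 2.51-fold higher, a difference of 1.33 (standard error 0.37, 95% confidence interval 0.36 to 2.30, adjusted p = 0.338 by limma). Its call depended on single arrays: without control replicate 1 the difference was 0.94 and without MSCT replicate 2 it was 1.07, and in neither case was the unadjusted p under 0.05. Nor was it by the methods' t-test, and its intensities, 60.3 to 239, were in the dimmest 25% of rows. Lpl, lipoprotein lipase itself, was lower on both MSCT arrays, at 9.98 and 8.70 against 8.41 and 8.07. Its difference of -1.10 exceeded 2-fold without passing the screen (adjusted p = 0.467 by limma). It was -0.46 without control replicate 1 and -1.74, past the screen, without control replicate 2. Lpl was added to the genes given in full after its values were seen. Lipe, hormone-sensitive lipase, had control arrays at 10.36 and 9.19 around the MSCT arrays (difference -0.03). Mgll, monoacylglycerol lipase, differed by 0.51 and Plin2, a coat protein of lipid droplets, by 0.24, both without overlap.

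**Figure D3:**
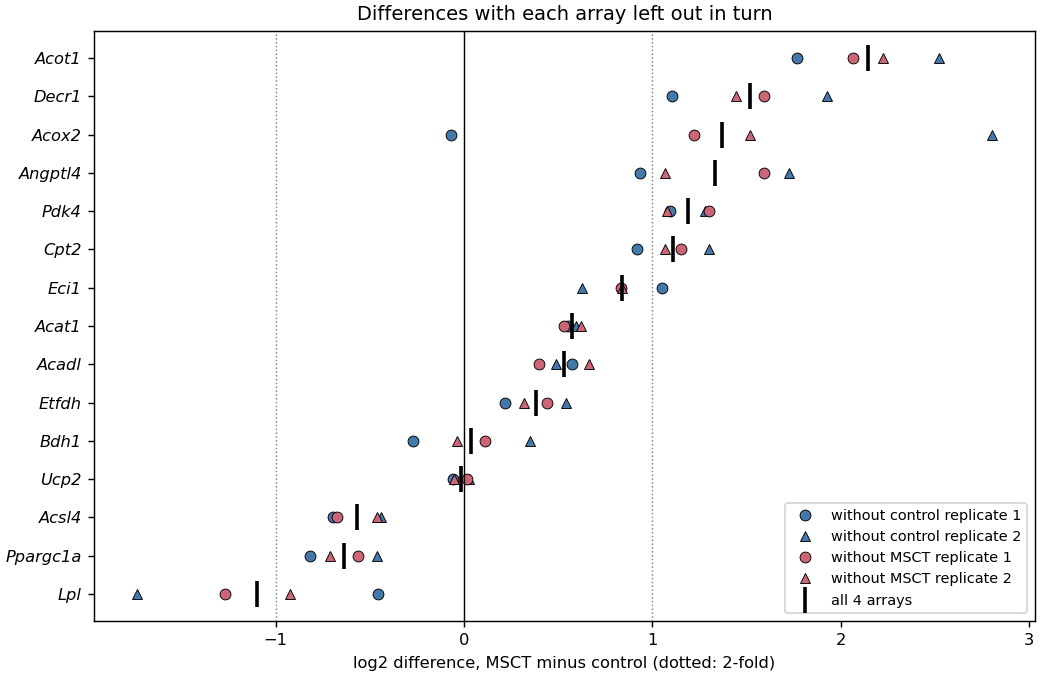
Log2 difference, MSCT minus control (x axis), of 15 genes with all 4 arrays (black line) and with each array left out in turn (symbols). Acot1, Decr1 and Pdk4 stay to the right of the dotted 2-fold line each time, while Acox2 moves from 1.37 to -0.07 without control replicate 1.

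Another 83 genes of fatty acid uptake, oxidation and ketogenesis and their regulators were taken as a wider list, of which 51 were measured. In it 27 genes were higher and 24 lower, with a median difference of 0.04. The screen was passed by 3 genes in the higher direction (5.88%, against 2.12% of all rows) and by 1 in the lower (against 2.51%). Those higher take up or carry fatty acids: Fabp1 and Fabp2, the binding proteins of liver and small intestine, and Slc27a2, a fatty acid transporter and very long-chain acyl-CoA synthetase. Fabp1 was at 6.34 and 8.18 against 11.40 and 11.14 (difference 4.01), Fabp2 at 6.56 and 9.02 against 11.43 and 10.91 (3.38), and Slc27a2 at 6.71 and 7.84 against 9.56 and 8.83 (1.91). For all 3 genes control replicate 1 was the lowest value, as it was for Acot1, Decr1, Cpt2, Pdk4 and Angptl4. The gene lower by the screen was Fgf21, a hormone that PPARs induce in liver, at 8.04 and 7.79 against 6.23 and 6.88 (difference -1.36, adjusted p = 0.297 by limma). Its row is in the dimmest 25% of rows.

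Of the same list, 5 genes were higher (9.8%, against 4.8% of all rows) and 4 lower (7.84%, against 7.17%) at an unadjusted p under 0.05. Slc25a20, the carrier that passes acylcarnitine to Cpt2, was higher by 0.67 (11.07 and 10.91 against 11.77 and 11.56). Pparg was higher by 0.58, while Ppara (0.13) and Ppard (-0.20) had overlapping arrays. Lower were Acacb, which makes the malonyl-CoA that inhibits Cpt1 enzymes (-0.92), Acat2, a cytosolic thiolase (-0.69), and Slc22a5, the carnitine transporter of the plasma membrane (-0.63). Acacb was at 9.34 and 9.36 against 8.52 and 8.34, and its groups lay far apart for the spread of its replicates. The fatty acid transporter Cd36 differed by 1.08 (adjusted p = 0.427 by limma).

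Markers of cell types were measured on the same arrays. For colon epithelium 10 of 12 markers had a row, the brightest being Cldn7 and Krt19, and Cdx1 and Vil1 had no measured row, and together they summed to an intensity of 186100 and 186800 in the control rats against 207900 and 201600 after MSCT. None of these 10 had a p under 0.05, but 7 were higher without overlap (70.0%, against 21.3% of all rows) and 0 lower. Their median difference was 0.18. Smooth muscle markers (5 of 10 measured) summed to 171500 and 141300 against 159200 and 155000. Of macrophage and granulocyte markers, 7 of 11 were measured, all 7 were higher on both MSCT arrays, 6 with an unadjusted p under 0.05 (21.3% and 4.8% of all rows were so), the largest difference was that of the complement gene C1qb (1.61), and their sum was 4977 and 4607 against 10460 and 11350. All 3 measured goblet cell markers (Tff3, Zg16 and Foxa3, of 8 listed) were higher past the screen, as were 2.12% of all rows. Their sums were 3897 and 5076 against 20660 and 21060, and Muc2 was not measured. Absorptive colonocyte markers (11 of 12) summed to 104100 and 118100 against 128800 and 121700. Of these, Alpi (1.39, past the screen) and Anpep (0.91) were higher at an unadjusted p under 0.05 (18.2%, against 4.8% of all rows). Without overlap, 5 of the 11 were higher (45.5%, against 21.3% of all rows): Alpi, Anpep, Car4, Slc26a3 and Slc9a3. Another 4 were lower without overlap (36.4%, against 24.5% of all rows): Slc26a2, Aqp8, Cdhr5 and Ceacam1. Enteric neuron and glia markers (8 of 9) summed to 11580 and 11390 against 8507 and 8619. Of them 3 (Elavl4, Ret and Uchl1) were lower at an unadjusted p under 0.05 (37.5%, against 7.17% of all rows). Of adipocyte markers 4 of 12 were measured, with sums of 23210 and 25450 against 18780 and 17390 that were mostly Pck1. The other 3 summed to 3317 and 2409 against 2493 and 2799 and went different ways (Cidec 0.41, Fabp4 -0.04, Cfd -0.85), and Adipoq and Lep, which define that cell, have rows without a value. Of skeletal muscle markers 8 of 14 summed to 3820 and 2427 against 8345 and 6162, and without Acta1 (2.06, past the screen) to 2541 and 1596 against 2332 and 3067. Mast cell markers (3 of 7) summed to 1024 and 802.7 against 3580 and 2638. Their sum turned on the row named Mcpt1, a protease gene, with the largest higher difference of all rows (4.41, past the screen). Without it the sums were 919.5 and 702.4 against 1051 and 766.8. That row was 21.3-fold higher, the fold that the paper lists for Mcpt2 and not for Mcpt1. Which of these genes it measures is thus not settled. Lymphocyte markers (4 of 11) summed to 834.8 and 646.1 against 1306 and 1039, with Zap70 (1.89) past the screen, and endothelium markers (3 of 7) to 2286 and 1621 against 2013 and 2821, with none at an unadjusted p under 0.05. The part of these cell types in the differences of the fatty acid genes was not tested.

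**Figure D4:**
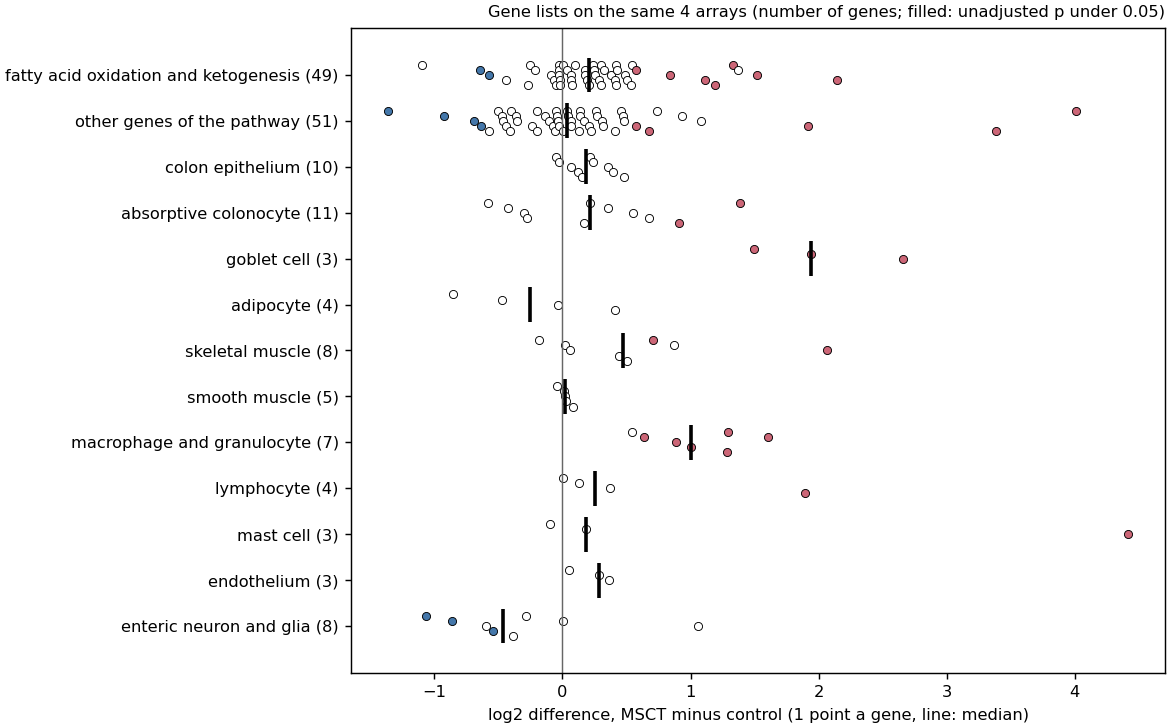
Log2 difference, MSCT minus control (x axis), of each measured gene (points) of the fatty acid oxidation and ketogenesis genes, the wider pathway list and 11 lists of cell type markers (y axis, number of genes in brackets), with the median of each list as a line. Filled points have an unadjusted p under 0.05, red for higher and blue for lower, and the medians are 0.21 for the 49 genes, 0.04 for the wider list and 1.00 for macrophage and granulocyte markers.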

How the data were processed

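Total RNA from colon of 4 rats was turned into Cy3-labeled cDNA for one-color NimbleGen arrays. The authors scanned the arrays and extracted them with NimbleScan, and the submitters' processing notes name RMA, a background correction, quantile scaling and probe summary, without its settings. The deposited table gives 1 linear intensity per RefSeq transcript and array. Of 26420 rows, 18350 are filled for all 4 arrays, while 8070 are empty by a rule not given in the sources used here. Array medians were 848 to 893. The number of arrays limits the precision, and 2 against 2 arrays cannot give an exact two-sided permutation p under 0.333, so each p rests on the variance that limma shares between rows.

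Intensities were used as log2 values without pseudocount, scaling or filter. MSCT was compared with control by limma 3.58.1 (lmFit, eBayes) in R 4.3.3 on all rows, with Benjamini-Hochberg adjustment over all rows and, per the study's methods, a screen of unadjusted p under 0.05 and more than 2-fold. Accessions were matched without versions to the RefSeq table of GRCr8, which named 7062 rows. Where a gene of a list had several rows, the one with the highest mean was used. The fits were also run on simulated arrays with planted differences, larger than those of most genes reported here. That run does not show how well differences of the sizes reported here are recovered. Members, lists and promoter motifs were chosen with earlier results of these data known. All 49 measured genes are named, with array values for those with p under 0.05 and the largest difference of each role. Of the wider list, genes past the screen were named, and Slc25a20, Pparg, Ppara, Ppard, Acacb, Acat2, Slc22a5 and Cd36 were added after their values were seen. Some genes of that list are not reported here by name. Alternatives were quantile normalization, equal array medians, leaving out dim rows, an intensity-dependent variance, the methods' t-test, a block for the replicate number, single arrays left out, a fold limit of 1.5, other rows per gene and linear means. Python 3.11.15 was used for lists and figures.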

Additional observations from a re-analysis of the deposited data

How the results depend on the processing

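The 5 genes past the screen stayed past it after quantile normalization and with equal array medians, and their folds stayed above 2 when linear means replaced log2 means. With fewer rows tested, the dimmest 25% left out, 3 of the 47 genes left passed (Cpt2, Decr1 and Pdk4, since the rows of Acot1 and Angptl4 were left out). Without the dimmest 50%, 2 of the 40 genes left passed (Cpt2 and Decr1). Of the 9175 rows then left, 251 passed the screen, and of the 28 genes left in the wider pathway list 0 did. With an intensity-dependent variance 17 of the 49 genes had an unadjusted p under 0.05 by limma (15 higher, 2 lower). The share of all rows with such a p in that fit was not counted. In it 387 rows (2.11%) passed an adjusted p of 0.05, against 0 in the main limma fit. Cpt2 and Decr1 had an adjusted p of 0.0367 and 0.0441 by limma without the dimmest 50% of rows. With an intensity-dependent variance these were 0.0184 and 0.0219. Over all alternatives their adjusted p ran from 0.0184 to 0.657 and from 0.0219 to 0.648. By the methods' t-test, 388 rows, 3 of the 49 genes and 1 gene of the wider list passed, against 850 rows, 5 genes and 4 genes by limma. Why fewer passed was not tested. A fold limit of 1.5 gave 2019 rows and 7 genes.

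With the replicate number as a block, 6 genes passed, with Lpl added. The labels do not say that a number marks shared animals, litters or days, and the differences between replicates 1 and 2 of both groups had a correlation of 0.234 across rows. Leaving out single arrays, 4 to 7 genes passed the screen, 3 of them (Acot1, Decr1 and Pdk4) every time, and 4 to 7 had an unadjusted p under 0.05, and the median difference ran from 0.19 to 0.29. Where 1 array was left in a group, it was assumed to vary like the arrays of the other group. Over the whole table the count was 934 to 1565, and in the wider list 4 to 8, of which the highest of both came without control replicate 2. With single arrays left out, 15 of the 49 differences changed sign, none of a gene at an unadjusted p under 0.05, and apart from Acox2 none of these 15 was over 0.21 in size. Of the genes given in full, Acox2 ran from -0.067 (without control replicate 1) to 2.802, Bdh1 from -0.273 (without control replicate 1; -0.036 without MSCT replicate 2) to 0.348, and Ucp2 from -0.059 to 0.024 (0.016 without MSCT replicate 1). Ucp2 was also at 0.021 with equal array medians. The wider list was run under these settings after the data were examined. Other rows per gene changed nothing, since each of the 49 genes has 1 row.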
